A study of Mus musculus with 18 samples.

Results

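The 8 genes described here are Trp63, which encodes the transcription factor p63, and 7 keratins: the basal keratins Krt5, Krt14 and Krt15 and the simple-epithelial keratins Krt7, Krt8, Krt18 and Krt19. They were taken by their symbols from tables of 23420 genes, which hold 52 keratin genes in all, and all 8 were present in each table. RNA-seq had been performed on whole lungs of mouse embryos at 14.5 dpc (days post coitus), when the airways branch, to ask how loss of Rptor, Tfam or Cox10 from the lung epithelium changes gene expression. Rptor encodes a component of the growth-regulating complex mTORC1, Tfam a factor that maintains mitochondrial DNA, and Cox10 an enzyme needed for cytochrome c oxidase. The deficient lungs were Rptorf/f; ShhCre/+, Tfamf/f; ShhCre/+ or Cox10f/f; ShhCre/+, and the control lungs were Rptorf/+; ShhCre/+, Tfamf/+; ShhCre/+ or Cox10f/+; ShhCre/+, with 3 samples in each of the 6 groups. All 18 samples therefore carried a Cre recombinase in the Shh locus, which is active in the lung epithelium, and every control carried a floxed allele of the targeted gene. The Cre acts in epithelial cells, while the RNA came from whole lungs, mesenchyme and other cells included.

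p63 is the defining transcription factor of basal cells, the stem cells along the base of the trachea and large airways, and of stratified epithelia such as skin and oesophagus. Keratins form intermediate filaments from pairs of a type I and a type II chain. Krt5 (type II) and Krt14 (type I) are the classical basal pair, and Krt15 (type I) marks basal and progenitor cells of several epithelia. Krt8 (type II) and Krt18 (type I) are the first keratins of the embryo and pair in simple epithelia, where Krt7 (type II) and Krt19 (type I) add to them.

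In the mouse genome (GRCm38, GENCODE vM21), the type II genes lie on chromosome 15, Krt5 at chr15:101707070-101712898, Krt7 at chr15:101411043-101430313 and Krt8 at chr15:101996698-102004482. Of the type I genes, Krt14 (chr11:100203162-100207548), Krt15 (chr11:100131758-100135928) and Krt19 (chr11:100140810-100148665) lie on chromosome 11. Krt18, a type I gene, lies among the type II genes at chr15:102028180-102032027, where its start and that of Krt8 face away from each other across 23.7 kb. Trp63 lies at chr16:25683763-25892102, and a value for the whole gene does not separate its long and short forms. Some reads cannot be placed with certainty: 29.7% of the 50-base stretches of Krt8 exons also occur in exons of Krt8-ps or the overlapping Gm36026, 13.9% of those of Krt14 in Krt16 or Krt17, and 12.2% of those of Krt5 in genes that include Krt6a and Krt6b. Krt7 overlaps an antisense gene, Gm671, and whether the counting used strand is not stated.

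RefSeq promoter sequences of Krt7, Krt8 and Krt18 are shown because these are the simple keratins whose levels were lower over the 3 lines together. They are the 250 bases before a start annotated by RefSeq (GRCm38.p6), read 5′ to 3′ along the gene. These starts differ from those of the GENCODE spans given above. The Krt7 sequence lies wholly inside its GENCODE span, and the Krt8 and Krt18 sequences lie partly inside theirs. Distances given below are to the RefSeq start. RefSeq promoter entries were matched for 5 of the 8 genes. Capitals mark the places where any of 3 motifs was matched on either strand. One is the GC box, spelled GGGCGG. Another is an E-box, searched for in the form CACCTG. The last is a TATA-like run of the letters ATAAAA.
Krt7, chr15:101412153-101412402, plus strand: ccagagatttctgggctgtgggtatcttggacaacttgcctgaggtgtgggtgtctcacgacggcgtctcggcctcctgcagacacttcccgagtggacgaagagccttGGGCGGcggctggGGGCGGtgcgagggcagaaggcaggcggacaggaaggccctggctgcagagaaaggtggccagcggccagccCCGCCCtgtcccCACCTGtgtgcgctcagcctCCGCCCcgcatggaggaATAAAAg
Krt8, chr15:102004343-102004592, minus strand: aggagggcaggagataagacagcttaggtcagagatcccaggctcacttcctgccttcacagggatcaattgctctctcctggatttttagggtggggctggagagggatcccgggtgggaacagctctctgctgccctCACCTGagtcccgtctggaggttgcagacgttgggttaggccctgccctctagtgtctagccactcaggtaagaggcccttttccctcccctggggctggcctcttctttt
Krt18, chr15:102027966-102028215, plus strand: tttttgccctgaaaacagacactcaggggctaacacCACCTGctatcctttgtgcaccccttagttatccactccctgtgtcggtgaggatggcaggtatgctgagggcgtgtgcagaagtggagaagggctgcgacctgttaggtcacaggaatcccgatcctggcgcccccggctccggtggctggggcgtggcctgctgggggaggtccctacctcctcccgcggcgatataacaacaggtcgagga
Each of the 3 sequences held CACCTG once, which 17.2% of 32851 RefSeq windows of the same length hold, and so did that of Krt5. Krt7 held 4 GC boxes, at 141, 128, 56 and 24 bases before the start, where 32.7% of windows hold any. It also held ATAAAA at 7 bases before the start, and Krt5 held it at 29 bases before the start, against 17% of windows. None of the 5 RefSeq sequences held the TATA box TATAAA, which 12.4% of windows hold. The same was true of the Grainyhead-like motif AACCNGTT (1.79% of windows), the forkhead motif TGTTTAC (3.17%) and the AP-1 motif, spelled TGANTCA (6.75%). No motif searched overlaps another, except that TATAAA and ATAAAA share letters. A match is a description of these letters and not evidence of binding. The sequence searched for Krt14, chr11:100206031-100206280 on the minus strand, lies wholly inside its GENCODE span. Motifs absent from it therefore say nothing of the sequence before that span.

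Values are normalised read counts, that is, reads of a gene after division by the sample's size factor. Samples held between 27675601 and 29704748 reads and between 17671 and 17910 genes above 0, so counting error is small for the simple keratins and large for Krt5, whose values were often below 10. Differences between deficient and control lungs were tested by limma, a linear model fitted across all genes, on log2(value + 1) for each line. They are given as the log2 fold change of deficient over control lungs with its standard error (SE), and a gene is said to rise or fall where p, adjusted by the Benjamini-Hochberg method over all genes tested, was below 0.05. Genes with a value of at least 10 in at least 3 of the 6 lungs were tested, which were all 8 members in the Rptor and Tfam lines and 7 in the Cox10 line. In the deficient lungs the targeted genes themselves were close to the controls, and so do not check the labels of whole lungs: the mean for Rptor was 2239.6 ± 52.03 (SD, n = 3) against 2149 ± 254, for Tfam 1102 ± 72.5 against 1013 ± 85.1, and for Cox10 797 ± 37.99 against 794 ± 44.7. Values of epithelial genes are given with the comparison to them. In whole lungs, fewer epithelial cells and less RNA of a gene per epithelial cell cannot be told apart. The study's methods describe the controls as littermates of the deficient embryos, and the labels do not say which samples came from 1 litter, so p-values measure the spread between these samples.

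In the control lungs the simple keratins were abundant and the basal genes were scarce. Per kb of the principal transcript, the median level over the 9 control lungs was 1657 (range 1374 to 1781) for Krt7, 1440.0 (range 1262 to 1948) for Krt18, 1429 (range 1184 to 1941) for Krt8 and 864 (range 562 to 1034) for Krt19. The basal genes followed with 57.6 (range 34.1 to 113) for Krt15, 15.1 (range 4.21 to 41.3) for Krt14 and 3.19 (range 1.38 to 6.90) for Krt5, and Trp63 ranged from 3.23 to 12.1 between Krt14 and Krt5, all as normalised reads per kb. The ranges of Krt7, Krt18 and Krt8 overlapped, as did those of Krt15 and Krt14, Krt14 and Trp63, and Trp63 and Krt5, while Krt19 lay between the first 3 and Krt15 without overlap with either. The place of Krt7 depends on its 3′ end: with the longer end that GENCODE gives it, its median was 642 (range 532 to 690.1). The 3 lines were scaled in separate tables, so levels set across them are a description. The plot of values by sample shows this gap between the upper and lower row.

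**Figure D1:**
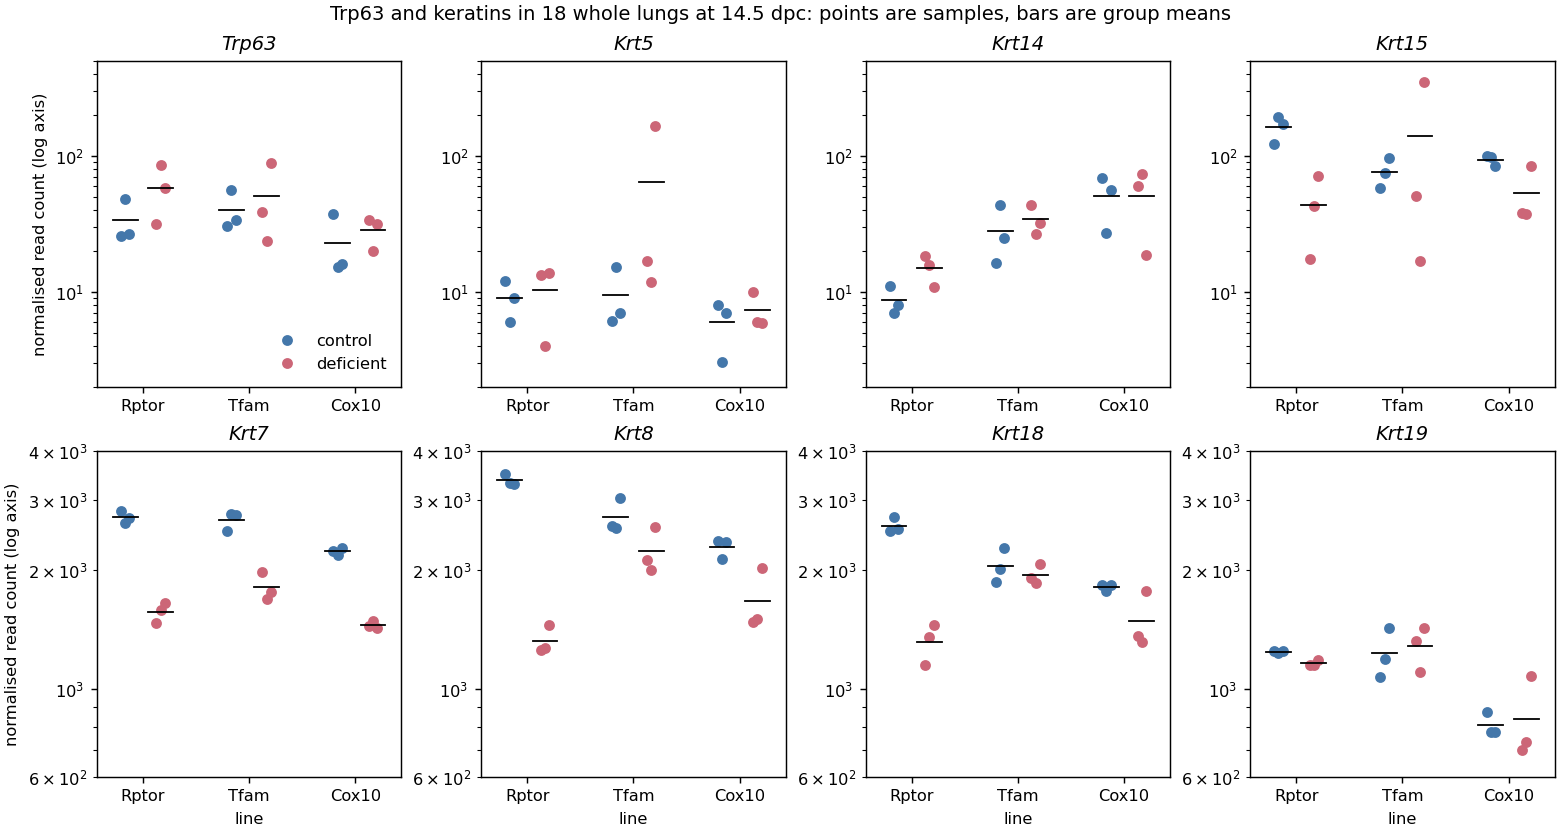
Normalised read counts of the 8 genes on log axes (basal genes in the upper row, 2 to 500; simple keratins in the lower row, 600 to 4000) in the 3 lines, with a point for each sample and a bar at each group mean. Krt7 separates deficient from control lungs in all 3 lines, Krt8 and Krt18 separate most widely in the Rptor line, and the high Krt5 and Krt15 means of the Tfam-deficient group come from a single sample.

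Among the 8 genes, 4 fell in the Rptor-deficient lungs (Krt15, Krt8, Krt18 and Krt7) and none rose. The 2719 genes that fell were 18.2% of the 14940 genes tested. The values of 5 members, these 4 and Krt19, lay below all controls in every deficient lung, as did 26% of the genes tested. The median log2 fold change of the 8 members was -0.45, and that of all genes tested 0.0083. Krt7 alone fell in the Tfam line, where 396 of 15053 genes (2.63%) did, and the median of the members was -0.0058 against 0.00098 over all genes. It was also the only one of the 7 members tested to fall in the Cox10 line, among 50 of 14937 genes (0.335%), with a median of -0.30 against 0.0014. Krt5 was too low to be tested there. Krt7 was the only member not overlapping between groups in the Tfam line, where 11.8% of genes lay lower in that way, and Krt7 and Krt8 were those of the Cox10 line, where 10.8% did.

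Trp63 was low in all lines and passed the test in none. It read 25.9, 47.96 and 26.9 in the Rptor controls and 31.6, 85.2 and 58.3 in the Rptor-deficient lungs. The highest values were in deficient lungs, but the groups overlapped (log2 fold change 0.73 ± 0.38 SE at a limma adjusted p of 0.172). Samples with the same replicate number deviated together in this line, and with the number as a block the adjusted p of Trp63 was 0.0424, also by limma, in a fit that called 38.6% of genes. Without deficient replicate 1, the log2 fold change was 1.10 with a limma adjusted p of 0.0254. Trp63 read 30.5, 56.6 and 34.01 in the Tfam controls and 38.7, 23.8 and 88.95 in the Tfam-deficient lungs, where the groups overlapped (log2 fold change 0.16 ± 0.41 SE at a limma adjusted p of 0.881). The Cox10 groups overlapped too, with 37.7, 15.1 and 15.99 in the Cox10 controls and 33.9, 20.1 and 31.6 in the Cox10-deficient lungs (log2 fold change 0.39 ± 0.40 SE at a limma adjusted p of 0.676). The mean over the 3 lines was 0.43 ± 0.27 SE at a limma adjusted p of 0.221 and did not pass the test.

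Krt5, the basal partner of Krt14, was low in 17 of the 18 lungs, between 3.03 and 16.9. It read 11.97, 5.99 and 8.95 in the Rptor controls and 13.3, 3.96 and 13.8 in the Rptor-deficient lungs, with overlapping groups (log2 fold change 0.072 ± 0.50 SE at a limma adjusted p of 0.922). It read 7.94, 3.03 and 6.996 in the Cox10 controls and 9.98, 6.03 and 5.93 in the Cox10-deficient lungs, where it was not tested. Krt5 read 6.096, 15.2 and 7.002 in the Tfam controls and 16.9, 11.9 and 165 in the Tfam-deficient lungs. The value of 165 is that of a single sample, Tfam-deficient replicate 3, and the other 5 lungs lay between 6.096 and 16.9. The gap to the next lung was 0.932 of the whole range, past Dixon's 95% limit for an outlier among 6 samples, which 4.46% of the genes tested in this line passed. The group difference did not pass the test (log2 fold change 1.80 ± 0.78 SE at a limma adjusted p of 0.267), and without this sample it was 0.64 ± 0.45 SE (limma adjusted p = 0.632).

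Krt14 did not pass the test in any line. It read 10.97, 6.99 and 7.96 in the Rptor controls and 18.4, 15.8 and 10.9 in the Rptor-deficient lungs, which overlapped only in that a deficient lung lay below the highest control (log2 fold change 0.72 ± 0.34 SE at a limma adjusted p of 0.127). Krt14 read 16.3, 43.5 and 25.01 in the Tfam controls and 43.7, 26.8 and 32.3 in the Tfam-deficient lungs. It read 68.5, 27.2 and 55.97 in the Cox10 controls and 59.9, 73.4 and 18.8 in the Cox10-deficient lungs. Both pairs of groups overlapped over most of their range, with adjusted p of 0.651 and 0.944 by limma.

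Krt15 fell with loss of Rptor, where it read 122, 193 and 172 in the Rptor controls and 17.3, 42.6 and 71.1 in the Rptor-deficient lungs. Every deficient lung lay below every control, and the mean was 26.9% of that of the controls (log2 fold change -2.05 ± 0.44 SE at a limma adjusted p of 0.00813). Krt15 read 100.2, 97.8 and 83.9 in the Cox10 controls and 37.9, 37.2 and 84.03 in the Cox10-deficient lungs, and 2 of the 3 deficient lungs lay below the controls (log2 fold change -0.92 ± 0.31 SE at a limma adjusted p of 0.307). The third, deficient replicate 3, lay just above the lowest control, and without it the difference was -1.30 with a limma adjusted p of 0.0128. It read 57.9, 74.8 and 97.03 in the Tfam controls and 50.6, 16.9 and 353 in the Tfam-deficient lungs. Tfam-deficient replicate 3 was the highest of the 6 lungs, past Dixon's limit, while the other deficient lungs lay below the controls (log2 fold change -0.14 ± 0.79 SE at a limma adjusted p of 0.953). Without it the difference was -1.32 ± 0.40 SE at a limma adjusted p of 0.151. Over the 3 lines together the difference was -1.04 ± 0.41 SE at a limma adjusted p of 0.0569, and with the replicate number as a block the adjusted p was 0.0216. It was 8.49e-04 without Tfam-deficient replicate 3, 0.0366 without Rptor-deficient replicate 3 and 0.0403 without Cox10-deficient replicate 3, each by limma.

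Tfam-deficient replicate 3 stood apart in a set of further genes, which were chosen after their values were seen. Ranked by its value against the highest of the other 5 lungs (5 added to both), the 10 highest of all 23420 genes were Krt13, Krt5, Pitx1, Krt4, Krt15, Dsg3, Trim29, Foxe1, Galnt6 and Upk3a. Krt13 and Krt4, the keratin pair of the oesophagus and other moist stratified epithelia, read 64.5 and 119 there and at most 2.03 and 17.2 in the other 5 lungs of the line. Dsg3, a desmosomal cadherin of stratified epithelia, read 17.6 against at most 0.993. Pitx1, a transcription factor of oral ectoderm and hindlimb, and Foxe1, one of the pharynx and thyroid, read 99.7 and 13.7 against at most 9.095 and 1.02. In the 12 lungs of the other lines the highest values were 2.99 for Krt13, 1.01 for Dsg3, 0.998 for Foxe1, 7.04 for Trim29, 11.2 for Pitx1, 13.8 for Krt5, 16.98 for Krt4 and 16.98 for Upk3a. Galnt6 and Krt15 reached 72.4 and 193 there.

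A list of 10 genes of squamous epithelium (oesophagus or skin) summed to 510.3 in Tfam-deficient replicate 3, to 329.5 and 283 in the other deficient lungs and to 287 to 335 in the controls. The sum of 510.3 includes Krt4 (119) and Krt13 (64.5), which were picked above by their values in this sample. Higher there than in the other lungs were Krt4, Krt13, Pax9 (16.6 against at most 7.11), Krtdap, Krt6a and Dsg1a, the last 3 at under 10, while the skin keratins Krt1 and Krt10 read 14.7 and 133, within the range of the other lungs. None of the 10 was at 0 in this sample, while Krt6a was at 0 in 4 and Dsg1a in 4 of the other 5 lungs. A list of 7 thymus genes summed to 6.84 there and to 4.96 to 11.1 in the other 5 lungs. Trp63 was also highest in this sample, and Krt14 was not. The part of such epithelium in the Krt5, Krt15 and Trp63 values of this sample was not tested.

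**Figure D2:**
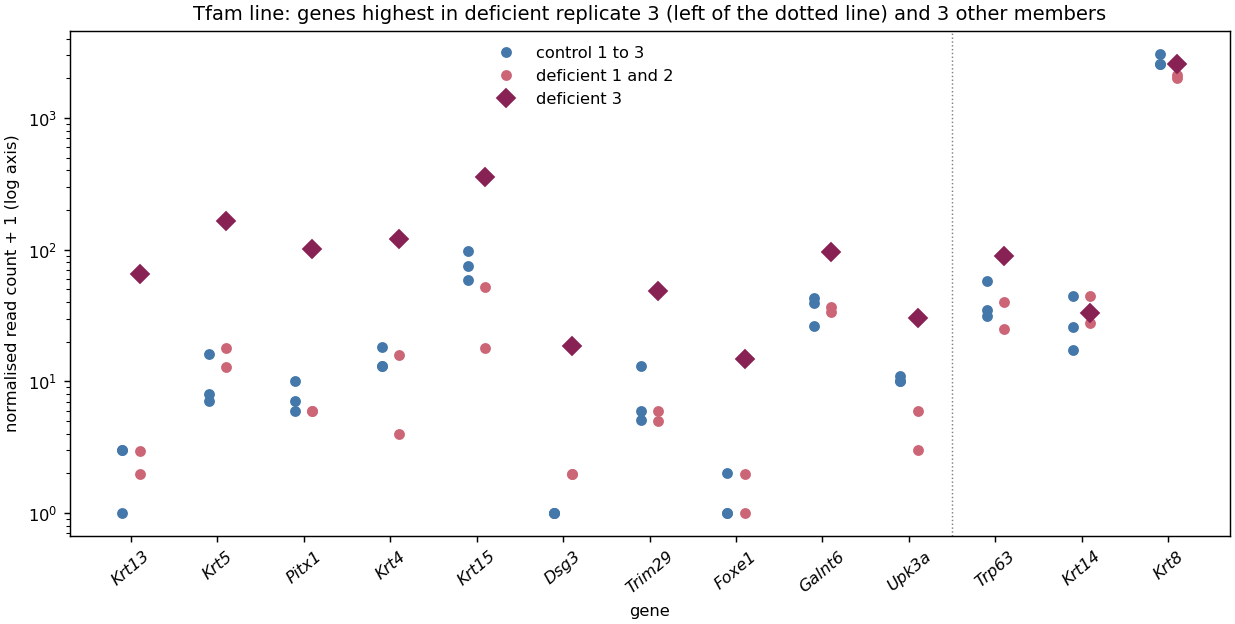
Normalised read counts plus 1 (log axis) in the 6 lungs of the Tfam line for the 10 genes highest in deficient replicate 3 (diamonds) relative to the other lungs, and for Trp63, Krt14 and Krt8. The diamond stands above all other points for the 10 genes and for Trp63, and among them for Krt14 and Krt8.

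Krt7 was the member that fell in every line. It read 2825, 2628 and 2703 in the Rptor controls and 1466, 1582 and 1649 in the Rptor-deficient lungs, a mean of 57.6% of the controls (log2 fold change -0.80 ± 0.063 SE at a limma adjusted p of 1.05e-04). It read 2507, 2777 and 2756 in the Tfam controls and 1974, 1691 and 1758 in the Tfam-deficient lungs, a mean of 67.4% (log2 fold change -0.57 ± 0.072 SE at a limma adjusted p of 0.00105). Krt7 read 2229, 2179.7 and 2279.6 in the Cox10 controls and 1444, 1483 and 1427 in the Cox10-deficient lungs, a mean of 65.1% (log2 fold change -0.62 ± 0.047 SE at a limma adjusted p of 0.004202). The highest deficient lung of each line lay well below the lowest control. The call in the Cox10 line did not hold without control replicate 1 (limma adjusted p = 0.06099, log2 fold change -0.62) or control replicate 3 (0.0767 and -0.60). Over the 3 lines the difference was -0.66 ± 0.036 SE at a limma adjusted p of 8.53e-10, where 19.1% of the 14550 genes tested in all lines were lower. No difference of Krt7 between lines passed the test: Rptor minus Tfam was -0.23 ± 0.088 SE at a limma adjusted p of 0.105, Rptor minus Cox10 -0.18 ± 0.088 SE at a limma adjusted p of 0.239, and Tfam minus Cox10 0.049 ± 0.088 SE at a limma adjusted p of 0.989.

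Krt8 and Krt18, the partners of simple epithelia, fell in the Rptor line and fell more there than in the other lines. Krt8 read 3503, 3312 and 3299 in the Rptor controls and 1253, 1268 and 1452 in the Rptor-deficient lungs, a mean of 39.3% of the controls (log2 fold change -1.35 ± 0.070 SE at a limma adjusted p of 2.16e-05). Krt18 read 2506, 2727 and 2539 in the Rptor controls and 1149, 1353 and 1451 in the Rptor-deficient lungs, a mean of 50.9% (log2 fold change -0.98 ± 0.089 SE at a limma adjusted p of 1.84e-04). The groups were wide apart for both genes.

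With loss of Tfam, Krt8 read 2579.5, 2562 and 3048 in the Tfam controls and 2125, 1997 and 2574 in the Tfam-deficient lungs, and the highest deficient lung, replicate 3, overlapped the controls (log2 fold change -0.29 ± 0.098 SE at a limma adjusted p of 0.138). Without that lung the difference was -0.40 ± 0.087 SE and passed the test (limma adjusted p = 0.0461). Krt18 read 1869, 2016 and 2271 in the Tfam controls and 1911, 1851 and 2067 in the Tfam-deficient lungs, with a mean of 94.7% of the controls and overlapping groups (log2 fold change -0.076 ± 0.078 SE at a limma adjusted p of 0.676).

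With loss of Cox10, Krt8 read 2362, 2137 and 2355 in the Cox10 controls and 1481, 1503 and 2021 in the Cox10-deficient lungs, with every deficient lung below the controls (log2 fold change -0.47 ± 0.12 SE at a limma adjusted p of 0.1802). Krt18 read 1828, 1766 and 1836 in the Cox10 controls and 1363, 1314 and 1772 in the Cox10-deficient lungs, where deficient replicate 3 overlapped the controls (log2 fold change -0.30 ± 0.11 SE at a limma adjusted p of 0.331). This sample was the highest deficient lung of its line for Krt8, Krt18, Krt15 and Krt19. It was also highest for the alveolar gene Sftpc, with 4084 against 386 and 562 in the other deficient lungs and 1241 to 1422 in the controls. Its Epcam, Cdh1 and Nkx2-1 summed to 10463, against 7965 and 8837. Without it 4 members passed the test in the Cox10 line: Krt7, Krt8 (-0.61, limma adjusted p = 0.00283), Krt18 (-0.43, 0.005397) and Krt15. Each was lower, as were 1.23% of all genes tested without that lung. DESeq2 on the recovered reads, which called 2.16% of genes, also called Krt8 there (adjusted p = 0.0163), as did limma in the fit of all 18 samples (adjusted p = 0.0342), where 1.4% of genes were called lower.

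The difference between lines was tested itself in the model of all 18 samples. The log2 fold change of Krt8 with loss of Rptor minus that with loss of Tfam was -1.06 ± 0.16 SE at a limma adjusted p of 5.35e-04, and minus that with loss of Cox10 it was -0.88 ± 0.16 SE at a limma adjusted p of 0.00231. For Krt18 these differences were -0.91 ± 0.14 SE at a limma adjusted p of 8.86e-04, and -0.68 ± 0.14 SE at a limma adjusted p of 0.00753. Krt8 and Krt18 were the only ones of the 7 members in this model with a difference between lines, and a more negative effect in the Rptor line was called for 6.35% of genes against the Tfam line and 4.21% against the Cox10 line. No member differed between the Tfam and Cox10 lines, where 0.055% of genes did. Over the 3 lines together Krt8 (-0.70 ± 0.064 SE at a limma adjusted p of 3.67e-07) and Krt18 (-0.45 ± 0.059 SE at a limma adjusted p of 1.84e-05) were lower.

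Krt19 did not pass the test in any line. It read 1247, 1235 and 1245 in the Rptor controls and 1151, 1149.7 and 1185 in the Rptor-deficient lungs, so that the deficient lungs lay just below the controls (log2 fold change -0.096 ± 0.057 SE at a limma adjusted p of 0.2201). It read 1071, 1195 and 1429 in the Tfam controls and 1325, 1102 and 1431 in the Tfam-deficient lungs (log2 fold change 0.064 ± 0.12 SE at a limma adjusted p of 0.831). Krt19 read 874, 779.7 and 777 in the Cox10 controls and 699.6, 733 and 1082 in the Cox10-deficient lungs (log2 fold change 0.022 ± 0.16 SE at a limma adjusted p of 0.962). The groups of both these lines overlapped, and the difference over the 3 lines was -0.0033 ± 0.078 SE at a limma adjusted p of 0.977.

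Krt19 is also a keratin of mesothelium, the cell layer on the lung surface. In a list of 7 mesothelial genes, Krt19 included, 5 rose in the Rptor line (Bnc1, Lrrn4, Upk1b, Upk3b and Wt1), where 16.6% of genes did. The others, Krt19 and the mesothelial marker Msln, lay below all controls in every deficient lung. Msln read 28.9, 37.96 and 43.8 in the Rptor controls and 10.2, 21.8 and 28.7 in the Rptor-deficient lungs (log2 fold change -0.93 ± 0.37 SE at a limma adjusted p of 0.0856), and passed with the replicate number as a block (limma adjusted p = 0.0296). The list summed to 4983 to 6480.4 in the controls and 9089 to 9596 in the Rptor-deficient lungs. None of the 7 passed with loss of Tfam or Cox10 by limma, where 2 and 1 had an unadjusted p below 0.05, edgeR called 0 and 0 and DESeq2 0 and 0, and the summed levels of the groups overlapped. None of the 7 genes was at 0 in any table. The part of mesothelium in the Krt19 values, and in those of the other simple keratins, was not tested.

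**Figure D3:**
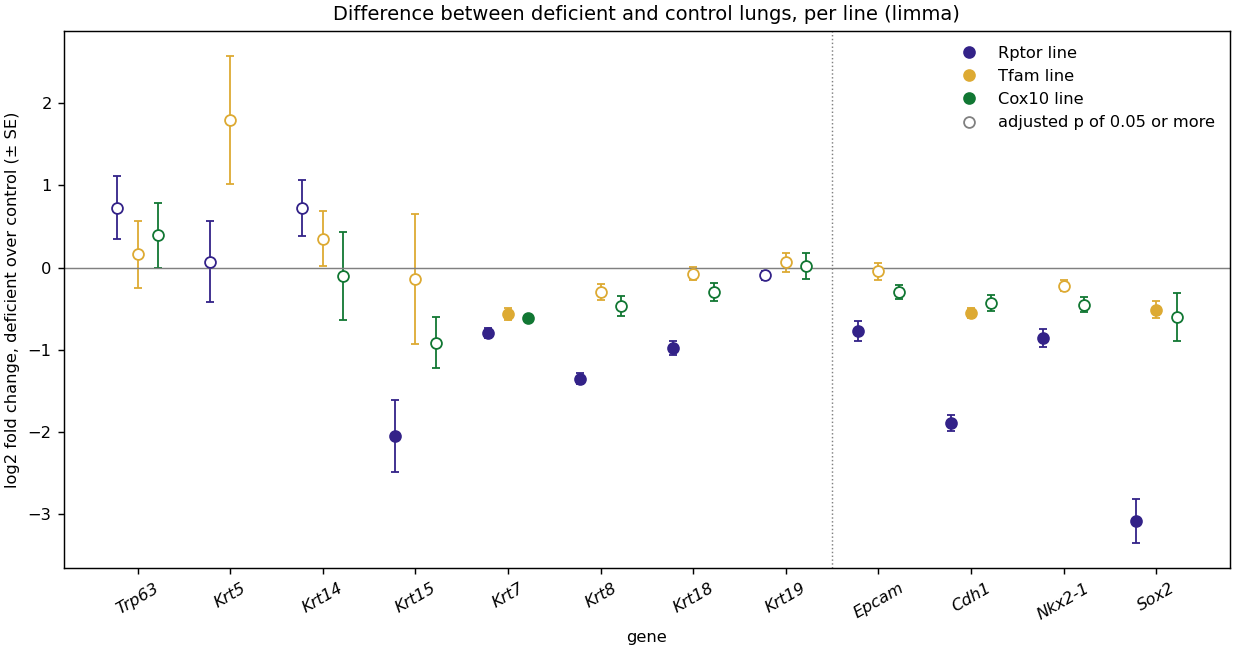
Log2 fold change of deficient over control lungs with its standard error (limma) for the 8 members and, right of the dotted line, for Epcam, Cdh1, Nkx2-1 and Sox2, coloured by line. Filled points passed an adjusted p of 0.05, which Krt7 did in all 3 lines. Krt5 of the Cox10 line was not tested and has no point.

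The makeup of the simple keratins differed between control and deficient lungs. Per kb of transcript, their summed level in the Rptor line was 6332 ± 83.7 in the controls and 3503 ± 232 in the deficient lungs (SD, n = 3). Krt8 made up 29.5% ± 0.675 in the controls and 20.9% ± 0.759 in the deficient lungs of that line, and Krt19 14.2% ± 0.197 in the controls and 24.1% ± 1.28 in the deficient lungs. Of the Tfam lungs the share of Krt19 was 15.98% ± 0.950 in the controls and 19.8% ± 1.04 in the deficient lungs, and of the Cox10 lungs 12.9% ± 0.712 in the controls and 17.1% ± 1.85 in the deficient lungs. Krt19 thus took a larger share in every deficient lung than in any control of its line. Shares are parts of a whole, and the mean level of Krt19 itself changed little. Its larger share therefore restates the lower levels of the other simple keratins.

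Which shares were smaller varied with the line. Krt7 made up 30.5% ± 1.74 in the controls and 24.3% ± 2.18 in the deficient lungs of the Tfam line. Its share was 30.9% ± 0.608 in the controls and 26.5% ± 3.76 in the deficient lungs with loss of Cox10, and the groups did not overlap in either line. With loss of Rptor the share of Krt7 was higher in every deficient lung, with 27.1% ± 0.826 in the controls and 28.2% ± 0.347 in the deficient lungs. The share of Krt18 was smaller in every Rptor-deficient lung, with 29.2% ± 1.44 in the controls and 26.8% ± 1.498 in the deficient lungs. It was larger in every deficient lung of the other lines, with 26.3% ± 0.296 in the controls and 29.6% ± 1.07 in the deficient lungs for Tfam and 28.4% ± 0.354 in the controls and 30.1% ± 1.07 in the deficient lungs for Cox10. With the GENCODE length of Krt7, tried after the data were seen, the Krt18 shares overlapped with loss of Cox10, with 34.4 to 35.6% in the controls and 35.2 to 36.7% in the deficient lungs. The other share differences given here kept their direction without overlap. Krt8 per Krt18 was lower in every deficient lung, with 1.01 ± 0.0713 in the controls and 0.783 ± 0.0598 in the deficient lungs of the Rptor line, 1.03 ± 0.04303 in the controls and 0.888 ± 0.0684 in the deficient lungs of the Tfam line and 0.979 ± 0.0347 in the controls and 0.871 ± 0.0249 in the deficient lungs of the Cox10 line. These ratios are per-kb descriptions of the members and were not tested.

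The RNA of type II chains (Krt7 and Krt8), relative to the RNA of type I chains (Krt18 and Krt19), was lower in all 9 deficient lungs than in any control of their line. The ratio of their levels per kb was 1.23 to 1.38 in the controls and 0.945 to 0.979 in the deficient lungs of the Rptor line. It was 1.29 to 1.43 and 1.01 to 1.04 in the Tfam line, and 1.40 to 1.46 and 0.986 to 1.203 in the Cox10 line. With the GENCODE length of Krt7 the ratios were smaller, with deficient means of 0.626, 0.723 and 0.774 against control means of 0.922, 0.922 and 0.963, and the groups stayed apart.

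**Figure D4:**
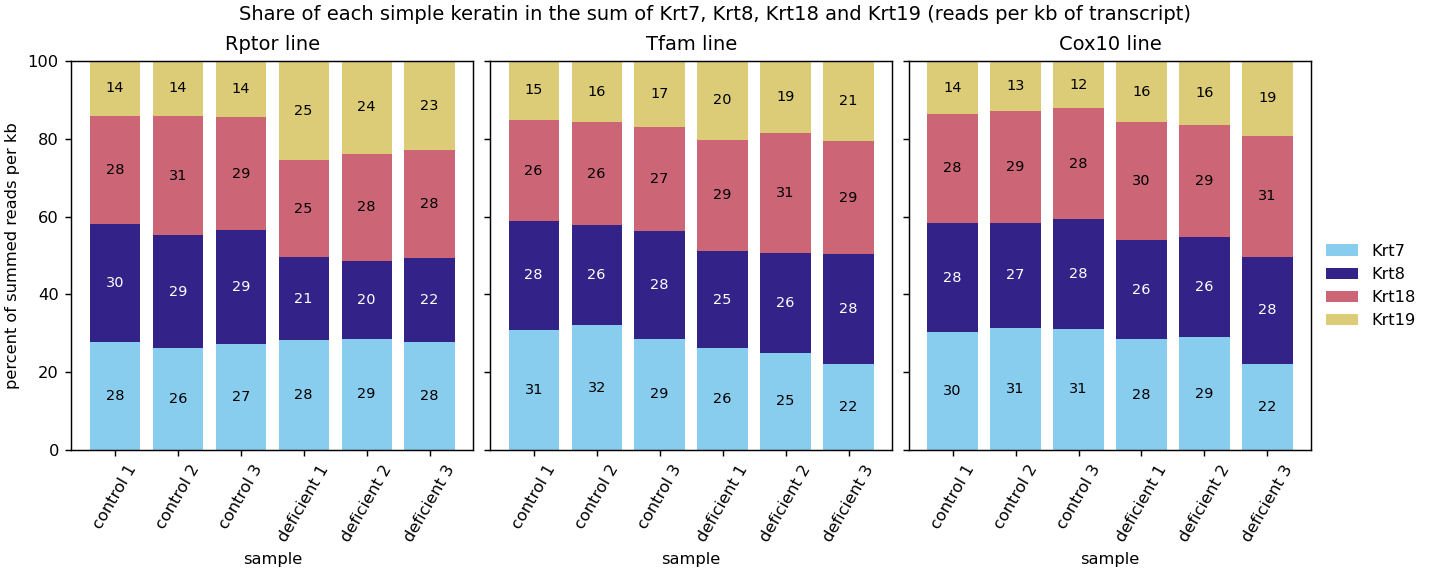
Share of Krt7, Krt8, Krt18 and Krt19 in their summed reads per kb, in percent, in each of the 18 lungs, with a stacked bar for each sample and the rounded percent written in it. The Krt19 part is larger in every deficient lung than in the controls of its line, the Krt8 and Krt18 parts are smaller in the Rptor line, while the Krt7 part is smaller and the Krt18 part larger in the other lines. The Krt18 parts of the Cox10 line overlap with the GENCODE length of Krt7.

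The members were next set against epithelial genes of the same sample, to ask whether they moved with the epithelium. Epcam, Cdh1 and Nkx2-1, genes of epithelial adhesion and of lung epithelial identity, all fell in the Rptor line, with log2 fold changes of -0.77, -1.89 and -0.85. The mean of their log2 values was 12.35 in the Rptor controls and 11.18 in the Rptor-deficient lungs. It was 12.19 and 11.92 in the corresponding Tfam groups, and 11.93 and 11.54 in those of Cox10. After it was subtracted, 94.5% of all genes were higher in the Rptor-deficient lungs and 0.763% lower, so that this comparison sets a member against the epithelial genes and not against the lung.

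Against this reference, Krt8 and Krt18 did not pass the test with loss of Rptor (-0.18 ± 0.14 SE at a limma adjusted p of 0.210, and 0.19 ± 0.13 SE at a limma adjusted p of 0.175). The reference genes themselves differed from their mean: Cdh1 by -0.72 (limma adjusted p = 7.87e-05), Epcam by 0.40 (0.0109) and Nkx2-1 by 0.32 (0.0286). The differences of Krt7, Krt8 and Krt18 lay within this range. Krt19 was higher by 1.08 ± 0.14 SE at a limma adjusted p of 2.82e-06, as were Trp63 (1.90 ± 0.33 SE at a limma adjusted p of 3.86e-05), Krt14 (1.90 ± 0.42 SE at a limma adjusted p of 3.99e-04), Krt5 (1.24 ± 0.51 SE at a limma adjusted p of 0.0268) and Krt7 (0.37 ± 0.13 SE at a limma adjusted p of 0.01404). That 5 of the 8 members were higher is below the share of all genes and is no result about them. Krt14 and Krt5 needed the deficient lungs to reach the minimum value for testing in this line. Among controls, only replicate 1 reached it, with 10.97 for Krt14 and 11.97 for Krt5. Their calls of higher thus rest partly on the group that admitted them. Krt15 was lower (-0.88 ± 0.32 SE at a limma adjusted p of 0.0156), that is, it fell further than the reference. This call did not hold without control replicate 2 (adjusted p = 0.0503 by limma) or deficient replicate 1 (0.0703). That of Krt5 did not hold without control replicate 2 (0.0808), and that of Krt7 without any one of the controls or deficient replicate 2, where its adjusted p reached 0.0712.

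With loss of Tfam, 49% of genes were higher than the reference and 1.33% lower. Krt7 was lower (-0.30 ± 0.099 SE at a limma adjusted p of 0.0265), and Krt19 (0.34 ± 0.11 SE at a limma adjusted p of 0.0248) and Krt5 (2.07 ± 0.69 SE at a limma adjusted p of 0.0270) were higher. The reference gene Cdh1 itself differed from the reference by -0.28 (limma adjusted p = 0.0205), close to Krt7. Krt5 needed the deficient lungs to reach the minimum value for testing here too, as only control replicate 2 (15.2) reached it among controls. With Foxa1, Foxa2, Esrp1 and Grhl2 as the reference, the difference of Krt7 was -0.13 and did not pass (limma adjusted p = 0.139). Without deficient replicate 3 none of the 3 passed, with adjusted p of 0.0618 for Krt7, 0.05297 for Krt19 and 0.0927 for Krt5 by limma. Each was also lost without some other samples: Krt7 without control replicate 2 or deficient replicate 2, Krt19 without control replicate 1 or deficient replicate 1, and Krt5 without control replicate 1 or 3, with adjusted p of up to 0.112.

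With loss of Cox10, 53.8% of genes were higher than the reference and 0.469% lower. Only Krt19 passed among the members (0.42 ± 0.13 SE at a limma adjusted p of 0.0228), and not without any one of the controls (limma adjusted p up to 0.09997). Same-numbered samples of this line correlated in their deviations from group means (mean 0.277), but a pair with different numbers reached 0.279. With the replicate number as a block, Trp63 (0.79, limma adjusted p = 0.04499) and Krt15 (-0.52, 0.0484) passed as well. Sox2, the transcription factor of the proximal airway, fell in the Rptor line (log2 fold change -3.09 ± 0.27 SE at a limma adjusted p of 1.64e-04) and in the Tfam line (log2 fold change -0.51 ± 0.10 SE at a limma adjusted p of 0.0189). It read 559.8, 386 and 491 in the Cox10 controls and 503, 292 and 207 in the Cox10-deficient lungs. These groups overlapped (log2 fold change -0.60 ± 0.30 SE at a limma adjusted p of 0.436).

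A list of 25 genes of basal cells or known targets of p63, hemidesmosome genes included, moved in both directions in the Rptor line. Of its 20 tested genes 9 fell and 7 rose (18.2% and 16.6% of all genes), with a median log2 fold change of -0.20 against 0.0083. Lamb3, a chain of the basement membrane protein laminin-332, read 1603, 1398 and 1386 in the Rptor controls and 276, 370.4 and 441 in the Rptor-deficient lungs (log2 fold change -2.03 ± 0.16 SE at a limma adjusted p of 8.66e-05). Every deficient lung lay far below the controls. Its partner chain Lama3 fell (log2 fold change -0.93 ± 0.098 SE at a limma adjusted p of 3.59e-04), as did the cadherin Cdh3 (log2 fold change -0.44 ± 0.061 SE at a limma adjusted p of 0.00117) and Fermt1, which links integrins to the cytoskeleton in epithelia (log2 fold change -1.91 ± 0.24 SE at a limma adjusted p of 7.17e-04). The genes that rose included Krt17 and the hemidesmosome components Col17a1, Itgb4 and Dst. Itga6, another hemidesmosome component of the list, fell (log2 fold change -0.19 ± 0.055 SE at a limma adjusted p of 0.0266). With loss of Tfam 2 of 21 tested genes fell (2.63% of all genes), Lamb3 (log2 fold change -0.83 ± 0.093 SE at a limma adjusted p of 4.85e-04) and Lama3, and with loss of Cox10 2 of 20 fell (0.335% of all genes), Fermt1 (log2 fold change -1.01 ± 0.16 SE at a limma adjusted p of 0.0492) and Cdh3 (log2 fold change -0.52 ± 0.073 SE at a limma adjusted p of 0.03503). With the replicate number as a block neither passed with loss of Cox10 (limma adjusted p = 0.0673 and 0.0578). None rose in these lines by limma, where 2.03% and 0.141% of all genes did, and the medians of the list were -0.067 and -0.0056.

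Desmosomes are the cell junctions to which keratin filaments attach. Of 12 tested genes on a list of 14 desmosome and keratin-anchoring genes, 7 fell and 3 rose in the Rptor line (18.2% and 16.6% of all genes), with a median log2 fold change of -0.83 against 0.0083. Those that fell included the plakophilin Pkp3 (log2 fold change -1.39 ± 0.13 SE at a limma adjusted p of 2.34e-04) and periplakin, Ppl (log2 fold change -1.08 ± 0.14 SE at a limma adjusted p of 7.72e-04). The desmocollins Dsc3 and Dsc2, desmosomal cadherins, rose. Dsc3 read 24.9, 23.98 and 24.9 in the Rptor controls and 177, 142 and 108 in the Rptor-deficient lungs (log2 fold change 2.46 ± 0.21 SE at a limma adjusted p of 1.51e-04). Dsc2 read 77.8, 86.9 and 117 in the Rptor controls and 423, 326 and 311 in the Rptor-deficient lungs (log2 fold change 1.91 ± 0.19 SE at a limma adjusted p of 2.53e-04). Every deficient lung lay above the controls for both. With loss of Tfam, Dsc3 rose (log2 fold change 1.48 ± 0.32 SE at a limma adjusted p of 0.02299), and Ppl (log2 fold change -0.52 ± 0.090 SE at a limma adjusted p of 0.00712) and Evpl fell, of 13 tested, where 2.03% of all genes rose and 2.63% fell. The median of the list was -0.099 there and -0.23 with loss of Cox10. None of 12 passed with loss of Cox10 by limma, where 7 had an unadjusted p below 0.05, edgeR called 0 and DESeq2 1.

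**Figure D5:**
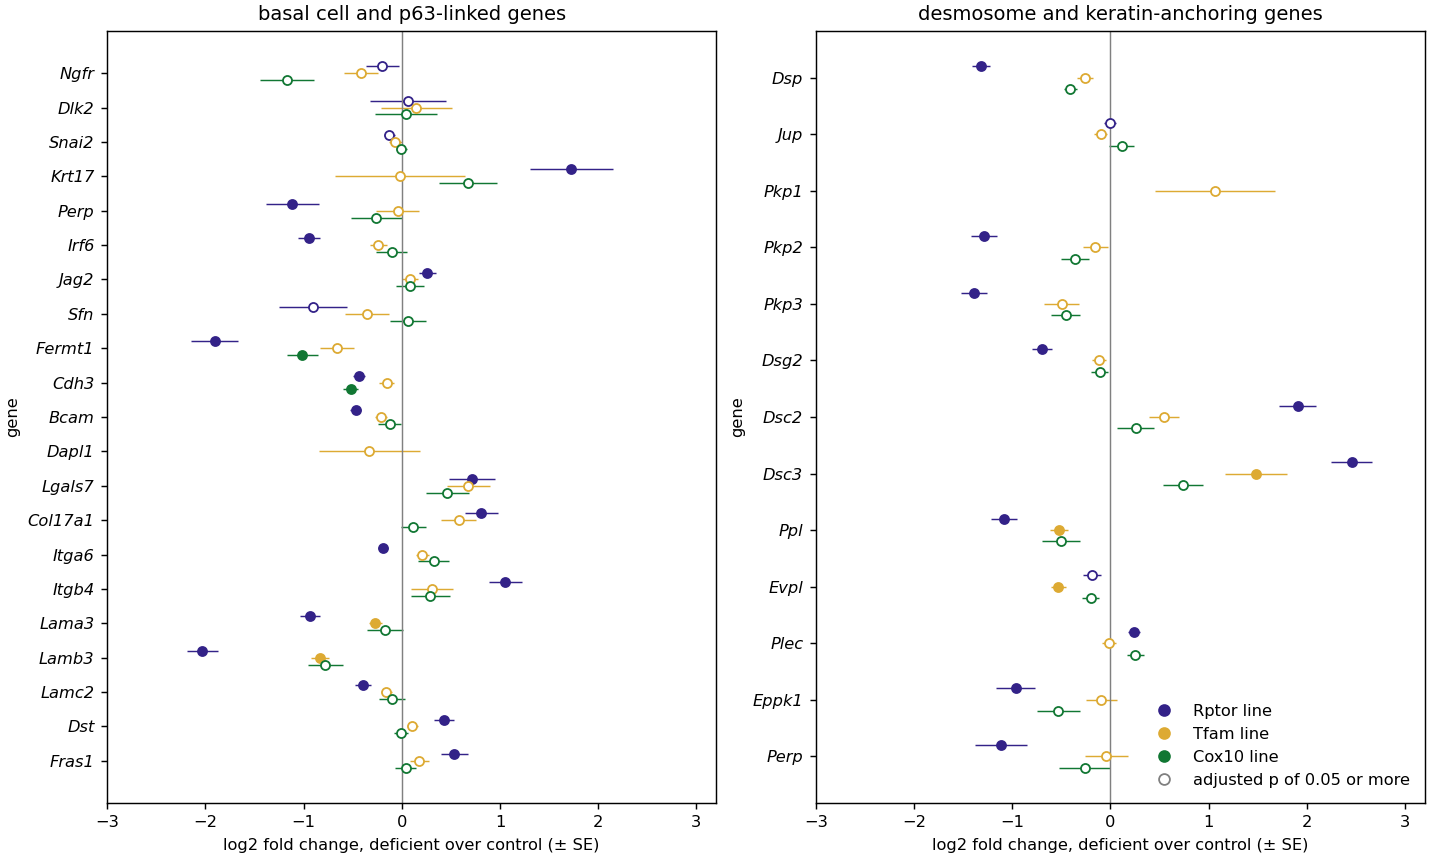
Log2 fold change of deficient over control lungs with its standard error (limma) for the tested genes of the basal-cell and p63-linked list (left) and the desmosome and keratin-anchoring list (right), coloured by line, with filled points where the adjusted p was below 0.05. In the Rptor line 16 of 20 genes on the left and 10 of 12 on the right are filled, on both sides of 0.

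Of the 45 keratin genes outside the 8, between 30 and 33 had a value above 0 in a line, and 7 or 8 were tested. Krt17, a keratin of basal and stressed epithelium, read 6.98, 15.99 and 6.96 in the Rptor controls and 24.5, 54.5 and 26.7 in the Rptor-deficient lungs and rose (log2 fold change 1.73 ± 0.42 SE at a limma adjusted p of 0.0142). Krt1 (log2 fold change 1.34 ± 0.34 SE at a limma adjusted p of 0.0169) and Krt10 (log2 fold change 0.43 ± 0.12 SE at a limma adjusted p of 0.0212), the pair of differentiating epidermis, also rose there, as did Lor (log2 fold change 1.80 ± 0.39 SE at a limma adjusted p of 0.00822) and Sbsn of the squamous list. These were the 4 tested genes of its 10, in a line where 16.6% of all genes rose, and Krt1 passed the filter on low values through the deficient lungs alone. Krt17 and Lor also needed the deficient lungs to pass it. Among controls, Krt17 reached 10 only in replicate 2 (15.99), and Lor read 6.99 there. Of the genes not tested, Krt4 read 6.98, 16.98 and 11.9 in the Rptor controls and 3.06, 4.95 and 7.91 in the Rptor-deficient lungs, and Pax9 read 0.997, 7.99 and 0.995 in the Rptor controls and 1.02, 1.98 and 1.98 in the Rptor-deficient lungs, with the deficient lungs lower or within the control range. That list summed to 309 to 346 in the controls and 453 to 544 in the Rptor-deficient lungs, in which Krt13 was at 0 and Krt6a was at 0 in controls as well. With loss of Tfam, Krt23 read 39.6, 49.5 and 45.01 in the Tfam controls and 101, 78.4 and 88.95 in the Tfam-deficient lungs and rose (log2 fold change 0.98 ± 0.17 SE at a limma adjusted p of 0.00732), and none of the other keratins passed. No keratin outside the 8 passed with loss of Cox10 by limma, where 3 of 7 had an unadjusted p below 0.05, edgeR called 0 and DESeq2 0.

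Among other intermediate filament genes, 2 of 12 tested rose in the Rptor line (Vim, log2 fold change 0.25 ± 0.062 SE at a limma adjusted p of 0.0152, and Lmna) and 3 fell (Lmnb1, Lmnb2 and Nes), near the 16.6% and 18.2% of all genes. None of 13 passed with loss of Tfam or Cox10 by limma, where 2 in each had an unadjusted p below 0.05, edgeR called 0 and 0 and DESeq2 1 and 0. Of 8 tested genes of airway cartilage, 5 fell and 1 rose in the Rptor line (18.2% and 16.6% of all genes). One of the 5, Matn3, passed the filter on low values through the controls alone. With loss of Tfam 3 fell and 1 rose (2.63% and 2.03%), and with loss of Cox10 1 fell (0.335%), with Col11a2 lower in all 3 lines. The call of Col11a2 with loss of Cox10 was lost with the replicate number as a block (limma adjusted p = 0.0566). How much trachea the dissected lungs held is not stated, and its part in the values of basal genes was not tested.

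Across the 18 lungs, each gene centred on its mean in its table, Krt8 and Krt18 ran together (r = 0.973), and each ran with Krt7 (r = 0.864 and 0.796), while Krt19 ran less closely with Krt8 (r = 0.369) and not with Krt7 (r = 0.0801). The samples share the group difference, which enters these values. Of the 14550 genes tested in all lines, the most alike to Krt8 were Fam129b (r = 0.977), Lamb3 (r = 0.976) and Cldn6 (r = 0.974), those to Krt18 were Krt8 (r = 0.973), Akr1c19 (r = 0.971) and Snx7 (r = 0.965), and those to Krt7 were Cpn1 (r = 0.971), AI661453 (r = 0.9702) and Col11a2 (r = 0.969). For Krt19 they were Egfl6 (r = 0.840), App (r = 0.825) and Tapbpl (r = 0.803), and for Krt15 Tmem128 (r = 0.859), Tmsb4x (r = 0.8401) and Dcaf11 (r = 0.8196). Trp63 was most like Krt17 (r = 0.785), Wif1 (r = 0.772) and Agtr2 (r = 0.7597), Krt14 was most like Klhl30 (r = 0.872), Ttn (r = 0.821) and Barx1 (r = 0.816), and Krt5 was most like Arhgap12 (r = 0.799), Fam185a (r = 0.7701) and Slco3a1 (r = 0.733). Values near the read floor, as for Krt5 and Trp63, make such likeness weak.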

How the data were processed

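RNA-seq of 18 whole lungs (3 per group) was analysed. The authors deposited, per line, a table of normalised signal, that is, a gene's read count after division by the sample's size factor. The submitters' processing notes name Trim Galore, HISAT2, featureCounts, DESeq2 and the build mm10 without versions or settings. 100% of values were whole multiples of the smallest value of their column (within 0.01), so whole reads were recovered. Fold changes and p-values that the authors also deposited were not used.

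Groups and replicate numbers came from the sample titles. log2(value + 1) was fitted per line in limma 3.58.1 (R 4.3.3, eBayes with trend, two-sided) for genes with a value of at least 10 in at least 3 of 6 samples, with Benjamini-Hochberg adjustment over all genes tested and calls below 0.05. This scale understates the change of low genes. Differences between lines and their mean came from a fit of all 18 samples with 6 groups. edgeR 4.0.16 and DESeq2 1.42.0 were run on recovered reads as alternatives. For Rptor, Tfam and Cox10, edgeR called 5209, 696 and 68 genes and limma 5202, 702 and 71. The scripts were tested on simulated data. Same-numbered samples correlated in their deviations from group means in the Rptor line (mean 0.348, lowest pair 0.207). They did so on average in the Cox10 line (0.277 and 0.117), and not in the Tfam line (-0.146). Pairs with different numbers reached 0.0698 in the Rptor line and 0.279 in the Cox10 line, so the numbers pair the Cox10 samples less clearly. No source says that a number marks a litter, although the study's methods describe littermate controls. Between replicates the chi-square per gene was at least 4.11, so none was a repeated library.

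Levels per kb used the principal GENCODE vM21 transcript within the RefSeq gene span (GRCm38). The members, gene lists and tests were chosen with earlier results of these data known. Up to 4 genes per list were chosen for naming by the number of lines in which they passed and then by size. Further listed genes are named beside them without that rule. Counting error is a part of the spread shown.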

Additional observations from a re-analysis of the deposited data

Results flagged for a closer look

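The effect of the deletion on 2 members differed between lines by a test of the difference itself in the limma fit of all 18 samples. For Krt8, the Rptor effect minus the Tfam effect was -1.06 and the Rptor effect minus the Cox10 effect -0.88 on the log2 scale. For Krt18 the corresponding differences were -0.91 and -0.68. Each was past the threshold in every fit that left out a sample, with a largest adjusted p of 0.0248 by limma, for Krt18 between the Rptor and Cox10 lines. The differences of the epithelial genes had the same sign, for Cdh1 -1.34 and -1.45, for Epcam -0.72 and -0.47 and for Nkx2-1 -0.63 and -0.40. Of these, Epcam and Nkx2-1 did not pass against the Cox10 line (limma adjusted p = 0.114 and 0.0924). With the replicate number as a block, Epcam passed there and Nkx2-1 did not (limma adjusted p = 0.0288 and 0.0715). The part of the epithelial genes in the keratin differences was not tested.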

How the results depend on the processing

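The number of members called was 4 with loss of Rptor, 1 with loss of Tfam, 1 with loss of Cox10 and 3 over the lines together. Counted as calls of a member in a comparison, there were 4 for differences between lines (2 members) and 10 against the epithelial reference (6 members). Scaling to library totals, the trimmed mean of M-values, no filter, pseudocounts of 0.1 and 5 and edgeR left each of these counts as it was where they were run. A second reference gave 11 against 10, with Krt7 of the Tfam line lost and Krt14 and Krt18 of that line gained. With the replicate number as a block, the Tfam line had 2 (Krt8 added, limma adjusted p = 0.0145), in a line whose numbers did not pair the samples. The block added Trp63 in the Rptor line, Krt15 over the lines together, and 3 calls against the epithelial reference (Krt18 of the Tfam line, and Trp63 and Krt15 of the Cox10 line), and changed no other call of a member. In the Cox10 line it lost Fermt1, Cdh3, Col11a2 and Foxa2, in the Rptor line it added Msln and Galnt6, and in the Tfam line it lost Lama3 and added Bcam, Fermt1 and Sftpc, among the other genes of the lists. The Cox10 line had 2 under DESeq2 and 2 in the fit of all 18 samples, Krt7 and Krt8 in both. A mean of at least 50 as filter left 6 calls against the reference, since 4 of the calls were of genes below it. Leaving out each sample in turn gave 4 to 5 members with loss of Rptor, 1 to 2 with loss of Tfam, 0 to 4 with loss of Cox10, and 3 to 4 over the lines together, and 4 to 5 calls between lines and 7 to 12 against the reference. A fit without a sample leaves 2 in its group. No called value changed its sign. Scaling moved the median gene by at most 0.0136 on the log2 scale. Krt5, Krt14 and Trp63 had few reads and standard errors of 0.34 to 0.78, where those of Krt7 were 0.047 to 0.072. Over all genes, DESeq2 called 323 in the Cox10 line and limma 71. Of the basal-cell and p63-linked list, DESeq2 called 4 and edgeR 1 both with loss of Tfam and with loss of Cox10, where limma called 2 each, and of airway cartilage DESeq2 called 2 with loss of Cox10, where limma called 1.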
